A study of Homo sapiens with 4 samples.

Results

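Peaks of the oestrogen-related receptor ERRα that were called in only one of 2 chromatin immunoprecipitation (ChIP) replicates are described here. A member is a peak on chromosomes 1 to 22 or X whose interval shares no base with any peak of the other replicate's list; a peak that shares at least 1 bp is called shared. Of 26635 peaks in both lists, 6486 were members, 3955 of 14032 in replicate 1 (28.2%, exact Clopper-Pearson 95% interval 27.4 to 28.9) and 2531 of 12603 in replicate 2 (20.1%, 19.4 to 20.8). The remaining 10077 peaks of replicate 1 and 10072 of replicate 2 were shared. Members were chosen by the overlap of the peak calls, which goes with peak height, so their fold, q value, width and absence from the other list are given as descriptions without a test.

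The cells were MDA-MB-231, an established human line of triple-negative, invasive breast cancer, grown without any stated treatment or genetic change. The series holds 2 libraries of chromatin precipitated with an antibody to ERRα (5 µg on chromatin of 2500000 cells fixed with 1% formaldehyde) and 2 libraries of input chromatin that saw no antibody. Both ERRα peak lists are labelled as called against the same pair of inputs, so they share their control. The ERRα replicates were separate cell cultures, per the series' design text. Sequencing was in pairs of 81 bp, and the labelled depths, printed without an exponent sign, were taken as 29000000 reads for ERRα and 10000000 for input, with no number for each replicate. Peak lists hold no expression values, so the identity of the cells could not be checked from markers.

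ERRα is an orphan nuclear receptor encoded by ESRRA. It binds DNA as a monomer or dimer at the ERR response element, an extended nuclear receptor half-site, and is best known for activating genes of mitochondrial respiration and fatty acid oxidation together with the coactivators of the PGC-1 family. A peak caller such as MACS2 lists a position when its reads exceed the local background by more than a set threshold. A list does not hold the signal at positions that missed, so the height of a member in the other replicate was not used here.

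The sequences below are RefSeq promoters (GRCh38.p14), 250 bases before to 50 after a gene start, printed in the sense of the gene. The first 4 are all of the promoters that held the word TNAAGGTCA, the ERR response element with one free base, under a summit found in one replicate only and no shared summit; capitals mark the word on either strand. CREBZF (chr11:85682814-85683113, minus strand) encodes a bZIP cofactor, SMIM8 (chr6:87322338-87322637, plus strand) a small membrane protein, and DAND5 (chr19:12969326-12969625, plus strand) a secreted antagonist of Nodal signalling. FAM240B lies at chr9:38720084-38720383 on the minus strand.
CREBZF: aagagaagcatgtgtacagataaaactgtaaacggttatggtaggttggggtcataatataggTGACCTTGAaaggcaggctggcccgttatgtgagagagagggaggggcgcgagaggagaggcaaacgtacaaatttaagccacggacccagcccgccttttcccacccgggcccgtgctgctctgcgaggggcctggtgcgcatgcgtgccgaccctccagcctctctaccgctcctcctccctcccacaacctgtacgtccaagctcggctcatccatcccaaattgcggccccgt
SMIM8: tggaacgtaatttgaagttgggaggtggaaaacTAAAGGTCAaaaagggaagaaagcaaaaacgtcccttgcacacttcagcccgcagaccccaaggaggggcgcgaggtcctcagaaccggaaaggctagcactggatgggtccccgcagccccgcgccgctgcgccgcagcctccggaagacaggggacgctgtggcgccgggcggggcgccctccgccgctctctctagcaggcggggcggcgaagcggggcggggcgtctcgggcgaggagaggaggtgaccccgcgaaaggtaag
FAM240B: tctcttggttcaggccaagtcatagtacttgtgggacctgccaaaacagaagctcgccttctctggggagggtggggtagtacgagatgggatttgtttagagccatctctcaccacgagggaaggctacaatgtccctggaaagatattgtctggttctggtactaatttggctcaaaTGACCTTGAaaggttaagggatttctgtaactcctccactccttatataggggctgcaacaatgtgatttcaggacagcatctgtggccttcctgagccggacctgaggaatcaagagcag
DAND5: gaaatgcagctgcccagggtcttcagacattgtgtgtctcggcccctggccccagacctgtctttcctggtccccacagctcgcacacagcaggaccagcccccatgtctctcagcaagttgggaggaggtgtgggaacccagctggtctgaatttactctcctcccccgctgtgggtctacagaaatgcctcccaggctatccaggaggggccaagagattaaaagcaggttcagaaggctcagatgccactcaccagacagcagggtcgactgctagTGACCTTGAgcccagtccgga

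The next 2 promoters stand for a commoner kind of member. They held no ERR response element and were the promoters with the highest member fold in each list that carried CCGGAAG, the core of many ETS factor sites, in capitals on either strand. SEC11A (chr15:84716090-84716389, minus strand) encodes a catalytic subunit of the signal peptidase, and MRPL40 (chr22:19432295-19432594, plus strand) a protein of the large mitochondrial ribosome subunit.
SEC11A: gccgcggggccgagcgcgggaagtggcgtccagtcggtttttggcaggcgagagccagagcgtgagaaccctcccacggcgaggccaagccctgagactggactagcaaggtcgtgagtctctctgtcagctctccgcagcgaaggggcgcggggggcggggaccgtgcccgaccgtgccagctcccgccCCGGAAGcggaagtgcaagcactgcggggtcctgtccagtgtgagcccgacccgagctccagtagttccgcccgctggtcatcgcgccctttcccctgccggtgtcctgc
MRPL40: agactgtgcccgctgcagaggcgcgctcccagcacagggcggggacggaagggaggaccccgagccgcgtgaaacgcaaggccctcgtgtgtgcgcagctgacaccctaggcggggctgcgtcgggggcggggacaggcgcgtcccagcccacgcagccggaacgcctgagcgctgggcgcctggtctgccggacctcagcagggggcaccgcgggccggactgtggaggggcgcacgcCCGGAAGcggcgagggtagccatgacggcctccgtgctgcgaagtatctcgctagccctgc

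Members were low peaks. The fold enrichment is the authors' value for how far ChIP at the summit exceeds the background used in peak calling. Its median was 5.33 over members and 8.61 over shared peaks in replicate 1. In replicate 2 it was 5.24 over members and 8.39 over shared peaks. The middle 90% of members lay between 3.81 and 7.70 in replicate 1 and between 3.69 and 7.65 in replicate 2. The median −log10 q was 5.54 for members and 15.8 for shared peaks in replicate 1, and 5.19 and 14.3 in replicate 2. Members were also narrower, with median widths of 361 bp against 566 bp for shared peaks in replicate 1 and 355 bp against 540 bp in replicate 2. Each member has a fold from a single library, so no SD can be given for any of them. Many members shared exactly the same fold: 178 members of replicate 1 had a fold of 5.33 and the same −log10 q. Another 178 had a fold of 4.95 and 162 a fold of 5.71, each fold again with a single −log10 q. In replicate 2, 110 members had a fold of 5.64 and the same −log10 q. The reason for these ties was not tested.

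**Figure D1:**
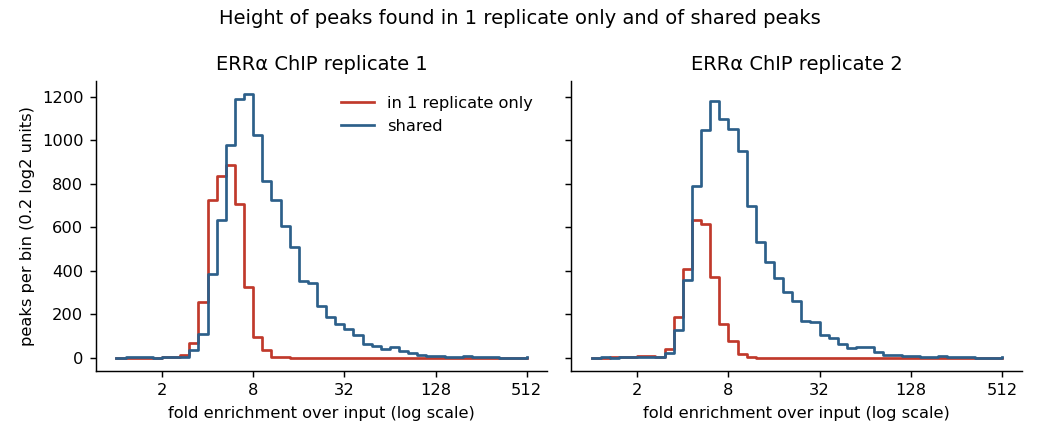
Number of peaks (y axis) by fold enrichment (x axis, labelled over input, log scale) in bins of 0.2 log2 units, for members and shared peaks of each ERRα ChIP replicate. Members form a narrow hump around medians of 5.33 and 5.24, while shared peaks reach far beyond, with medians of 8.61 and 8.39.

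The share of members fell steeply with height. Each list was cut by fold into 5 groups of equal size, called fold groups 1 (weakest) to 5 (strongest). In replicate 1, group 1 held 62.5% members, group 2 47.6%, group 3 26.2%, group 4 4.60% and group 5 0.0356%, which was 1 peak of 2807. In replicate 2 the shares in groups 1 to 4 were 50.0%, 34.1%, 13.9% and 2.38%, and group 5 held no member among 2521 peaks (95% interval up to 0.146%). A fold of at least 10 was reached by 13 members of replicate 1 and 8 of replicate 2. By chromosome, the share of members in replicate 1 ran between 24.6% on chromosome 20 (95% interval 21.4 to 28.1) and 33.6% on X (45 of 134, 25.7 to 42.2). In replicate 2 it ran between 17.4% on chromosome 17 (14.8 to 20.2) and 25.3% on chromosome 21 (21 of 83, 16.4 to 36.0). The intervals of X and chromosome 21, which hold few peaks, include the share of the whole list. Differences between chromosomes were not tested. No overlap was found between any member and the deposited list of matched peaks, while every shared peak overlapped it. That list pairs peaks of these same replicate lists, so this split follows from the membership rule and is no separate support. Of the shared peaks, 5093 of 10077 in replicate 1 and 5092 of 10072 in replicate 2 overlapped entries with an irreproducible discovery rate of 0.05 or less.

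The 10 highest members of each list lay near genes of many kinds. In replicate 1 the top member, with a fold of 13.7, was inside HMGA2, a chromatin architectural protein of the high mobility group, 9.94 kb from the nearer end of the gene; it ranked 2361 among all peaks of that list. Its nearest shared peak was 1209 kb away. The next were inside MEAK7, a gene of mTOR signalling (12.3), and inside DAO, which encodes D-amino-acid oxidase (12.1). A member with a fold of 11.8 lay 22.3 kb from CBX7, a Polycomb gene, and only 0.676 kb from a shared peak. Others of the 10 highest were inside OSCP1 (11.4), 17.4 kb from the potassium channel gene KCNK3 (11.0), 124 kb from the neuropeptide receptor gene NMUR2 (10.6), and inside TMEM248 (10.3), the cold-sensing channel gene TRPM8 (10.3) and RTP3 (10.3). None of these 10 summits reached an end of a protein-coding gene by the 1 kb limit used for places.

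In replicate 2 the top member, with a fold of 11.8 and a −log10 q of 27.9, was at AMPD3, an AMP deaminase of purine metabolism, 728 bp from the nearer end of the gene. The sixth, with a fold of 10.1, was 2 bp from the start of NDUFB10, a complex I subunit. No peak of replicate 1 lay closer than 4.45 kb to it, and a second member of replicate 2 with a fold of 6.65 lay at the other end of the same gene. The other 8 were 67.3 kb from ANAPC1, a subunit of the anaphase-promoting complex (10.9), 8.34 kb from ARRDC2 (10.5), inside the cell junction gene CGNL1 (10.3), 139 kb from C16orf95 (10.2), 2.13 kb from ARF1, a GTPase of Golgi transport (10.1), inside GTF2IRD2 (10.1), 4.44 kb from NOG, which encodes the BMP antagonist noggin (9.85), and inside FHAD1 (9.67).

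No difference in gene place between members and shared peaks passed the test when all members were counted. In replicate 1, 15.3% of member summits (95% interval 14.2 to 16.4) and 15.4% of shared summits (14.7 to 16.1) lay at a gene end, meaning at most 1 kb from either end of a gene that codes for protein. In replicate 2 the shares were 15.4% of members (14.0 to 16.8) and 15.3% of shared summits (14.6 to 16.0). Inside such a gene but not at its ends were 45.7% of members and 45.9% of shared summits in replicate 1, and 44.5% and 46.0% in replicate 2. Outside all genes were 26.1% of members and 26.1% of shared summits in replicate 1, and 26.6% and 26.1% in replicate 2. By Fisher's exact test, two-sided, with Benjamini-Hochberg adjustment over the 6 differences, each had an adjusted p = 0.949, and the largest, inside genes in replicate 2, was -1.47 percentage points. The test covers positions in a list and not further cultures.

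Under other treatments of height and overlap, some gene-end differences passed the test, but in opposite directions. The p values below were adjusted within each treatment and not across treatments. Of 48 recomputed differences in place, 4 passed, so a dependence on treatment is not established. The shared peaks of both lists are largely the same sites, so agreement between the replicates is not independent. Fold group 1 of each list had the highest share of summits at gene ends, 18.5% of members and 19.9% of shared summits in replicate 1 and 18.0% and 18.4% in replicate 2, and that group held 1753 of the 3955 members of replicate 1 and 1261 of the 2531 of replicate 2. In group 3 the shares were 12.5% of members and 14.4% of shared summits in replicate 1, and 10.3% and 13.3% in replicate 2. In group 4 they were 9.30% (12 of 129 members) and 13.5% in replicate 1, and 6.67% (4 of 60 members) and 15.1% in replicate 2. Among peaks with a −log10 q of at least 5, set against the whole of the other list, 12.8% of members and 15.0% of shared summits of replicate 1 were at gene ends (Fisher's exact adjusted p = 0.0487), and 12.6% and 14.9% in replicate 2 (adjusted p = 0.0598). With that limit in both lists the difference did not pass the test, with 13.8% of members and 14.8% of shared summits in replicate 1 (Fisher's exact adjusted p = 0.376) and 14.0% and 14.7% in replicate 2 (Fisher's exact adjusted p = 0.514). When peaks had to overlap by 50% of both intervals to count as shared, the direction was the opposite, with 16.4% of members and 14.8% of shared summits in replicate 1 (Fisher's exact adjusted p = 0.0326) and 16.8% and 14.8% in replicate 2 (Fisher's exact adjusted p = 0.0250).

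**Figure D2:**
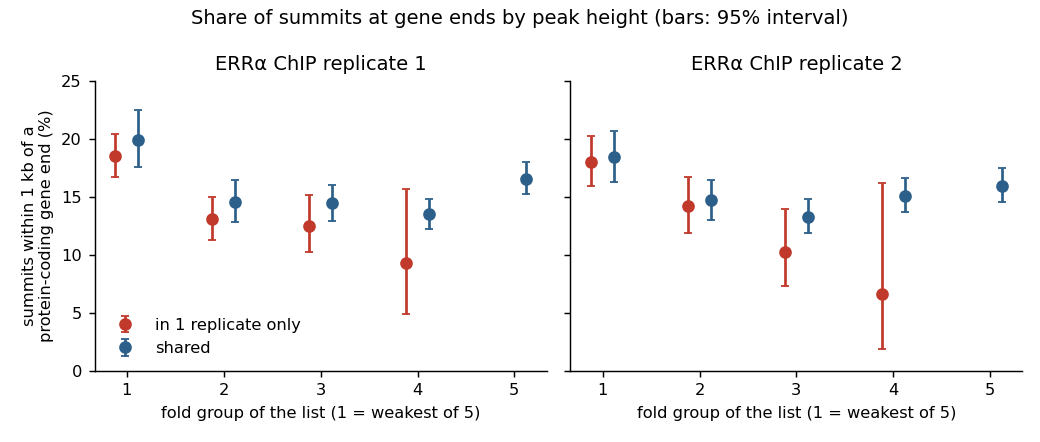
Share of summits at gene ends (y axis, %) in fold groups 1 to 5 of each list (x axis, 1 is the weakest), for members and shared peaks, with exact 95% intervals; members of group 5 (1 and 0 peaks) are not drawn. Member shares lie below the shared ones in groups 1 to 4, with overlapping intervals in each, and are highest in group 1 at 18.5% and 18.0%.

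Most member summits at gene ends were at gene starts. Strand was known for 523 of the 604 members at gene ends in replicate 1, and 84.7% of these (95% interval 81.3 to 87.7) were within 1 kb of the start, against 83.3% of shared summits. In replicate 2 it was 81.8% of 335 members (77.2 to 85.8), against 82.9% of shared summits. The median position relative to the start was -46 bp for members and 3.5 bp for shared summits in replicate 1, and -42 bp and 3.5 bp in replicate 2. Members at gene ends had median folds of 4.95 in replicate 1 and 5.11 in replicate 2, and members outside genes 5.41 and 5.35.

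Members were scattered among the shared peaks at long range. The median distance between a member and the nearest shared peak of the same list, edge to edge, was 50783 bp in replicate 1 and 44694 bp in replicate 2, against 38616 bp and 38664 bp between a shared peak and the next shared peak. A shared peak lay within 10 kb of 20.1% of members of replicate 1 (95% interval 18.8 to 21.3) and of 23.2% of shared peaks (22.4 to 24.0), and within 10 kb of 21.5% of members of replicate 2 (19.9 to 23.1) and of 23.1% of shared peaks (22.3 to 23.9). Within 1 kb it was 3.77% of members and 4.48% of shared peaks in replicate 1, and 3.44% and 4.31% in replicate 2. Within 100 kb it was 66.7% of members and 72.2% of shared peaks in replicate 1, and 68.3% and 72.2% in replicate 2. Beyond 1 Mb from any shared peak were 84 members of replicate 1 (2.12%) and 51 of replicate 2 (2.02%). These distances were not tested, and the shared peaks of both lists are largely the same sites.

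**Figure D3:**
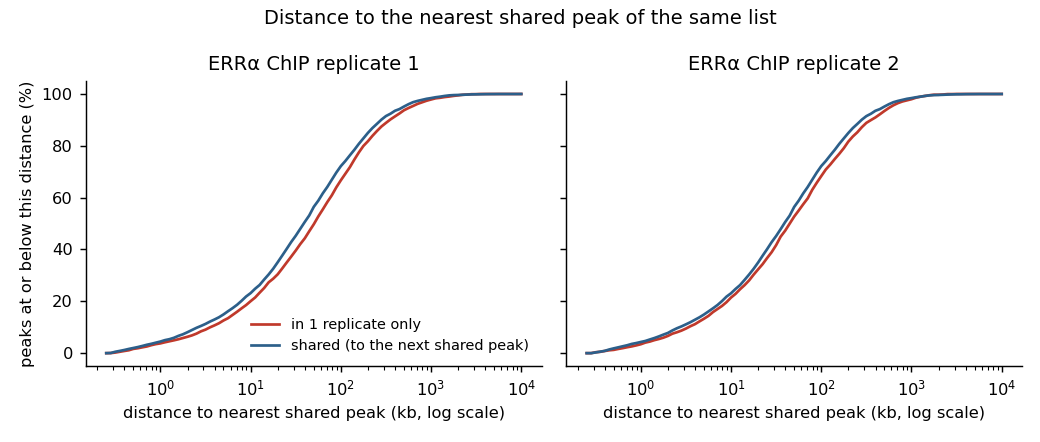
Cumulative share of peaks (y axis, %) by distance to the nearest shared peak of the same list (x axis, kb, log scale), for members and, to the next shared peak, for shared peaks. The member curve runs to the right of the shared one in both replicates, with medians of 50783 bp and 44694 bp against 38616 bp and 38664 bp.

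Median distances differed between places. Members at gene ends had a median distance of 43.6 kb in replicate 1 and 34.0 kb in replicate 2, and members outside genes 60.9 kb and 45.9 kb. For members inside genes that code for protein it was 47.5 kb and 44.6 kb. For members only in or at other kinds of gene it was 56.9 kb and 61.0 kb, the longest of the places in replicate 2. Median height differed little with distance: in replicate 1 the median fold was 5.14 within 10 kb of a shared peak and 5.33 beyond 100 kb, and in replicate 2 it was 5.24 and 5.37. The shared peak nearest to a member had a median fold of 8.70 in replicate 1 and 8.12 in replicate 2, close to that of all shared peaks. In the order of peaks along a chromosome, 1986 of the 3955 members of replicate 1 and 1572 of the 2531 of replicate 2 had no other member next to them. Of 2803 runs of consecutive members in replicate 1, 240 held 3 or more, and of 1987 in replicate 2, 96 did. The longest runs held 6 members, for example on chromosome 20 from 32905925 to 33321785 in replicate 1 and on chromosome 11 from 34457648 to 34917198 in replicate 2.

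Some members missed a partner narrowly. Within 1 kb of 191 members of replicate 1 (4.83%) and 141 of replicate 2 (5.57%) there was a peak of the other list that did not overlap, and it lay within 100 bp for 12 and 9 of them. At the edge of the rule, a member of replicate 2 on chromosome 11 (123061861 to 123062170, fold 4.83) came within 3 bp of a replicate 1 peak, and the members of both lists at BAZ1B, a chromatin remodelling gene, lay 5 bp from each other. On the shared side, a replicate 2 peak on chromosome 1 (58813042 to 58813435, fold 5.94) counted as shared by 1 bp.

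Members reached 1140 protein-coding genes (5.71% of the 19974 tested), meaning that a member summit lay within 1 kb of one of the 2 ends of the gene. Replicate 1 reached 713 genes, which is 3.57%, and replicate 2 reached 456, which is 2.28%. A shared summit reached 1812 genes (9.07%). Of the 1140 genes, 85 (0.426% of those tested) also had a shared summit at an end and 1055 (5.28%) did not. These 1055 are reached only by members, 660 (3.30%) in replicate 1 and 421 (2.11%) in replicate 2, with 26 (0.130%) in both lists; counting those with a shared summit too, 29 genes (0.145%) had members of both lists. Where neighbouring genes share a promoter, a single summit reaches both, so these genes are not independent. A gene reached only by members can still have a shared peak close by, with its summit past the 1 kb limit.

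At the ends of genes, the highest members of replicate 1 were at PROCA1 (fold 9.89), at SOD3, the extracellular superoxide dismutase (9.51), at the adjoining ends of the actin regulator FLII and the polarity gene LLGL1 (9.22), at RFFL (9.13), and at SEC11A (8.75, 20 bp from its start). FLII also had a shared summit at an end. In replicate 2, after AMPD3 and NDUFB10, they were at the receptor gene GPR3 (8.86), which also had a shared summit, the transcription factor gene FOXP1 (8.46), the JNK kinase gene MAPK9 (8.14) and the protease gene PCSK7 (8.06).

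Of 24 genes known as ERRα targets, 5 (20.8%) were reached only by members, against 5.28% of all protein-coding genes, and 10 (41.7%) had a shared summit, against 9.07%. Replicate 1 had a member at PDK4, a kinase that inhibits pyruvate dehydrogenase, with a fold of 5.33 at position -257 relative to its start, and the nearest replicate 2 peak was 200 kb away. It also had one at GABPA, a subunit of the respiratory gene factor NRF-2 (7.23, at -436), and one at PERM1, a muscle regulator of PGC-1 and ERR target genes (6.85), 260 bp from the end of the gene, the summit being 7155 bp from its start. Replicate 2 had one at the angiogenic factor VEGFA (5.49, 62 bp from a gene end), with a shared peak 1.06 kb further, and one at the oestrogen-induced gene TFF1 (5.64, 413 bp from a gene end). The nearest replicate 1 peak to the TFF1 member was 167 kb away.

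The respiratory chain passes electrons from NADH and succinate to oxygen. Of 45 complex I genes, 6 (13.3%) were reached only by members and 27 (60.0%) had a shared summit, so 6 of the 18 genes without a shared summit (33.3%) had a member, against 5.81% of all genes without one. The same share was 1 of 19 (5.26%) for complexes II, III and IV and 0 of 7 for ATP synthase and its carriers. Complex I was not alone in a high share. It was 35.7% for known targets, 25% for fatty acid oxidation and 23.8% for mitochondrial import, dynamics and genome maintenance. For the citric acid cycle and pyruvate oxidation it was 21.4%, for the mitochondrial ribosome 15.9% and for glycolysis 7.69%. Outside energy metabolism it was 18.75% for AP-1 and Hippo genes, 14.8% for the cell cycle and 14.3% for lysosome and autophagy. For focal adhesion, actin and invasion it was 10.5% and for the proteasome 10.3%. Nuclear receptors and coregulators had 5.41%, cholesterol and fatty acid synthesis 5.26% and olfactory receptors 0. The member folds at complex I genes were 8.15 at NDUFV2, 148 bp from its start, 6.29 at NDUFA13, 5.33 at NDUFA11, 4.57 at NDUFV3 and 4.56 at NDUFB2 in replicate 1, and 10.1 at NDUFB10 in replicate 2. NDUFS8 had a shared summit at an end and a replicate 2 member of 7.42, which lay 280 bp from an end and 6243 bp from its start. Of 43 genes of complexes II, III and IV, UQCRH, a complex III hinge protein (6.85, at -8 relative to its start), was the one reached only by members, and 24 had a shared summit. No gene of ATP synthase and the adenine nucleotide carriers was reached only by members (0 of 24, while 17 had a shared summit).

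Fuel oxidation feeds that chain. Of 29 genes of the citric acid cycle and pyruvate oxidation, 3 (10.3%) were reached only by members and 15 (51.7%) had a shared summit. Besides PDK4 these were PDHA1 (5.33) and PDHX (7.61 in replicate 1 and 4.43 in replicate 2), both of the pyruvate dehydrogenase complex. The same 2 summits also reached APIP, which overlaps PDHX at its start. SUCLG2, a subunit of succinyl-CoA ligase, had a member of 5.86 in replicate 2 beside a shared summit. Of 24 fatty acid oxidation genes, 4 (16.7%) were reached only by members. HADHA and HADHB, which encode the subunits of the mitochondrial trifunctional protein, start head to head and share a single member of replicate 1 (7.17), 40 bp and 347 bp from the 2 genes. ACAD11 had a member of 4.95 in replicate 1 and ETFDH, which passes electrons to coenzyme Q, one of 6.04 in replicate 2. Of 23 glycolysis genes, PFKM, the muscle phosphofructokinase, was reached only by members (5.33).

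The genes that maintain and translate mitochondrial DNA held several members. Of 41 genes of mitochondrial import, dynamics and genome maintenance, 5 (12.2%) were reached only by members and 20 (48.8%) had a shared summit. All 5 were in replicate 1: the mitochondrial RNA polymerase POLRMT (6.52), the import gene TIMM29 (5.71), the DNA helicase TWNK (5.54), the methyltransferase TFB1M (4.43) and TFAM, which packages and transcribes mitochondrial DNA (3.50). Of 74 mitochondrial ribosome genes, 7 (9.46%) were reached only by members and 30 (40.5%) had a shared summit. The highest were MRPL40 (7.69, at -119) in replicate 2 and MRPL43 in replicate 1, whose summit is that of TWNK, followed by MRPL38 (4.57) and MRPS2 (4.57) in replicate 1. MRPL2, with a member of 6.55 in replicate 1, and MRPL4, with one of 6.04 in replicate 2, also had a shared summit at an end. The nearest shared peaks lay 4.58 kb from the MRPL2 member and 6.24 kb from the MRPL4 member.

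Lists outside energy metabolism also held members. Members alone reached 3 of 30 lysosome and autophagy genes (10.0%), among them the cholesterol exporter NPC1 (6.14) and the autophagosome gene MAP1LC3B (4.98), and 9 had a shared summit, among them GABARAPL1 with a member of 4.85 as well. They reached 3 of 22 AP-1 and Hippo genes (13.6%), FOSL2 (5.33), JUND (4.86, 767 bp from an end and 2695 bp from its start) and ANKRD1 (4.86). They also reached 4 of 30 cell cycle genes (13.3%), among them the S phase transcription factors E2F3 (5.33) and E2F1 (4.98) and the mitotic kinase AURKB (4.58). Of 46 focal adhesion, actin and invasion genes it was 4 (8.70%). They were led by ACTB, which encodes beta-actin (6.18 in replicate 2 and 4.55 in replicate 1), SNAI1 (4.66) and TLN1 (4.48). PFN1, which encodes the actin-binding profilin, had a member of 5.75 and also a shared summit at an end, with the nearest shared peak 2.43 kb away. Of 31 proteasome genes, members alone reached 3 (9.68%), PSMD14 (5.49), PSMD7 (5.38) and PSMD11 (4.95), more than the 2 with a shared summit. Of 46 nuclear receptor and coregulator genes it was 2, the corepressor NCOR1 (4.47) and HNF4A (4.23), and of 21 cholesterol and fatty acid synthesis genes it was FDPS (5.24). The nearest shared peak lay 0.709 kb from the E2F3 member, 3.17 kb from that of E2F1 and 10.1 kb from that of AURKB. At FOSL2 it lay 2.42 kb away, at JUND 21.6 kb and at ANKRD1 241 kb. None of 19 olfactory receptor genes had any summit. The lists were chosen with earlier results of these data known and were not tested, so these counts describe the lists beside the background of 5.28%.

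**Figure D4:**
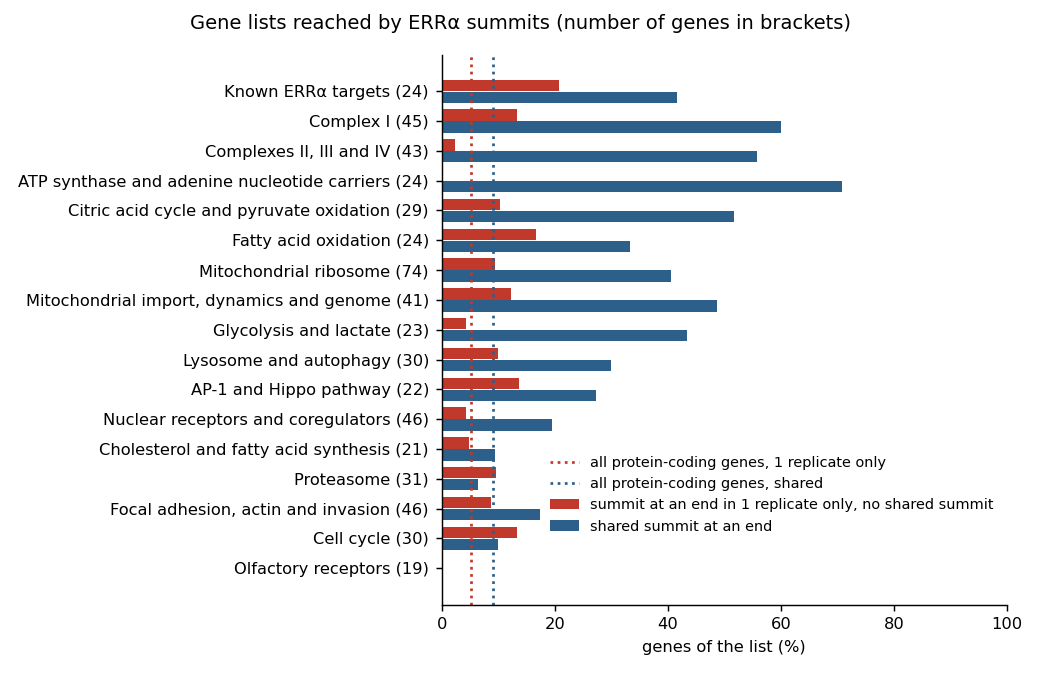
Share of each gene list (x axis, %) reached only by members (upper bar) and by a shared summit (lower bar), with dotted lines at the values over all protein-coding genes, 5.28% and 9.07%. Known targets stand at 20.8% and 41.7%, complex I genes at 13.3% and 60.0%, and ATP synthase genes at 0 and 70.8%.

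Among promoters, the response element half-site was most frequent in those with a strong shared summit. Sequence at summits elsewhere was not searched, and only 15.3% of member summits in replicate 1 and 15.4% in replicate 2 lay at gene ends. The shares below therefore describe promoters and not peaks in general. The word AAGGTCA, the extended half-site within TNAAGGTCA, was searched on both strands in 15812 RefSeq promoters of 300 bases, which cover 79.2% of the protein-coding genes and none on chromosome 8. It was present in 5.42% of the 295 promoters with a member summit and no shared one (16 promoters, 95% interval 3.13 to 8.66), in 17.7% of the 373 with a shared summit (13.96 to 21.95), in 2.73% of the 15144 with no summit and in 3.13% of all. By replicate it was 5.38% of 186 promoters in replicate 1 and 5.50% of 109 in replicate 2. The longer word TNAAGGTCA, which contains the shorter one, was present in 4 of the 295 (1.36%, 0.371 to 3.44), in 19 of the 373 with a shared summit (5.09%, 3.09 to 7.84) and in 0.639% of all promoters. With C as its free base, TCAAGGTCA was present in 3 of the 295 (1.02%), in 10 of the 373 (2.68%) and in 0.240% of all.

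The share was higher for higher summits in both sets, with overlapping intervals among members. Among promoters with members in fold groups 1 and 2 of their list, 11 of 256 (4.30%, 2.16 to 7.56) held AAGGTCA, and among those with members in groups 3 to 5 it was 5 of 39 (12.8%, 4.30 to 27.4). Among promoters with shared summits it was 5 of 131 (3.82%, 1.25 to 8.68) in groups 1 and 2 and 61 of 242 (25.2%, 19.9 to 31.2) in groups 3 to 5. Within groups 3 to 5 the heights were not alike, since most such members were in group 3 and shared peaks reached through group 5.

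Of the 4 promoters with TNAAGGTCA printed above, CREBZF and SMIM8 had a replicate 1 fold of 6.47 each and FAM240B one of 6.29, and DAND5 had a replicate 2 fold of 4.75. The word lay at positions -187, -217, -71 and 29 relative to the starts of CREBZF, SMIM8, FAM240B and DAND5. The promoters of FASTKD2, a mitochondrial RNA-binding protein (6.85), TMEM135 (5.93), COASY, the last enzyme of coenzyme A synthesis (4.18), and LIPT1, a lipoyltransferase of the mitochondrial dehydrogenases (3.91), were among the other 12 that held AAGGTCA; these were named after their values had been seen.

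CCGGAAG, a word chosen after the data were seen, was about as frequent in promoters with a member as in those with a shared summit. It was present in 36.9% of promoters with a member (109 of 295, 31.4 to 42.7), in 38.1% of those with a shared summit (33.1 to 43.2), in 13.2% of those with no summit and in 14.2% of all. At SEC11A the member fold was 8.75, with the nearest replicate 2 peak 0.539 kb away, and at MRPL40 it was 7.69, with the nearest replicate 1 peak 147 kb away. The last 3 letters of CCGGAAG are the first 3 of AAGGTCA, so the words can overlap. GGGCGG, the core of GC boxes, was present in 72.2% of promoters with a member, in 70.0% with a shared summit and in 58.5% of all, and CCAAT in 31.2%, 29.5% and 36.3%; both words were also chosen after the data were seen. Base composition moved with these sets, with a median GC content of 66.3% in promoters with a member, 64.3% with a shared summit and 62.7% with no summit; its part in these shares was not tested. A match is a stretch of letters and not a site, and promoters of neighbouring genes can overlap.

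**Figure D5:**
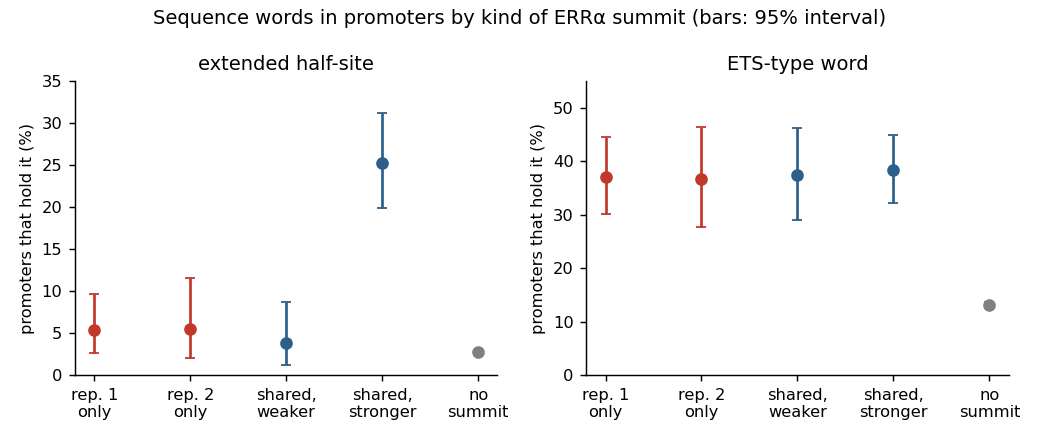
Share of promoters (y axis, %, with exact 95% intervals) that hold the extended half-site (left) or the ETS-type word (right), for promoters with a summit in one replicate only, with a weaker (fold groups 1 and 2) or stronger (fold groups 3 to 5) shared summit, or with none. The half-site stands at 25.2% of promoters with stronger shared summits and at 5.38% and 5.50% of those with members. The other word lies between 36.7% and 38.4% in all 4 sets with summits.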

How the data were processed

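ERRα was profiled by ChIP followed by sequencing in MDA-MB-231 cells, with 2 ERRα libraries and 2 inputs. Per the submitters' processing notes, reads were handled with MACS2 2.2.6, deepTools, SAMtools, Picard, Bowtie2 2.3.5 and Trim Galore 0.6.5 on build hg38, with parameters not given in the sources used here. Each deposited list gives the authors' fold enrichment (ratio of ChIP at the summit to the background used in peak calling). It also gives the authors' −log10 p and −log10 q, and a deposited score that is the −log10 q on a whole-number scale. The list of matched peaks has a deposited score of the irreproducible discovery rate (IDR), where 540 stands for 0.05. Read counts per peak were not used here, so intervals cover positions only.

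Members, places and distances were computed with Python 3.11.15, pandas 2.3.3 and SciPy 1.17.1, from intervals on chromosomes 1 to 22 and X. Gene positions came from the RefSeq gene table of GRCh38.p14, the build of hg38, and starts and promoters from its promoter table. Shares have exact Clopper-Pearson 95% intervals. Places were compared by two-sided Fisher's exact tests, adjusted over 6. The functions were tested on simulated data. The members, the 17 gene lists and the words searched were chosen with earlier results of these data known. Genes named were the 10 highest members of each list, the 6 genes with the highest member at an end, every known target reached, and up to 3 members per other list, while further ones, named to complete a list or for their sequence, were chosen after their values were seen.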

Additional observations from a re-analysis of the deposited data

Results flagged for a closer look

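Outside chromosomes 1 to 22 and X, that is on Y and on patch, alternate and unplaced contigs, 99 of 411 peaks of replicate 1 (24.1%, 95% interval 20.03 to 28.52) and 108 of 414 of replicate 2 (26.1%, 21.9 to 30.6) overlapped no peak of the other list. These were singled out because they are signal that the comparisons above do not use. The share was below that of the main chromosomes in replicate 1 (28.2%) and above it in replicate 2 (20.1%); this was not tested.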

How the results depend on the processing

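No paired analysis was possible because members are defined by comparing the 2 ERRα lists, and inputs have no list of their own. For the same reason neither replicate could be left out in turn. Differences in place (members minus shared, percentage points) stayed between -2.95 and 2.77 over 48 recomputed values, and 4 passed the Fisher's exact test. The p values were adjusted within each setting and not across settings. With 50% reciprocal overlap the values were 1.57 (gene ends) and -0.485 (outside) in replicate 1, and 1.99 (gene ends), -2.95 (inside, Fisher's exact adjusted p = 0.0250) and -0.263 (outside) in replicate 2. With peaks within 1 kb counted as shared they were 0.0503 (inside, replicate 1) and -1.18 (gene ends, replicate 2). With a −log10 q of at least 5 and the other list whole they were -2.20 (gene ends) and 0.352 (inside) in replicate 1 and -2.29 (gene ends) in replicate 2, where 2223 and 1409 members and 332 and 209 genes reached remained by construction, and 18.3% and 18.9% of members lay within 10 kb of a shared peak. With that limit in both lists they were -0.725 (gene ends, replicate 2), with 453 genes reached in replicate 1 and 18.3% and 18.7% within 10 kb. A 500 bp window gave 0.504 (gene ends, replicate 1); a 5 kb window gave 0.198 (inside, replicate 1) and 1497 and 956 genes reached. Fold group 1 alone gave 1.06 (inside, replicate 1), -0.411 (gene ends) and -1.37 (outside) in replicate 2. All genes of the table gave 0.403 (inside, replicate 1) and -0.180 (gene ends, replicate 2). The share of members near a shared peak was 16.9% and 18.3% with peaks within 1 kb counted as shared, and 24.0% and 27.7% to any peak of the other list. AAGGTCA in place of TNAAGGTCA gave 5.42% of promoters. The other 48 recomputed values kept their direction and call or stayed within their limit. Causes of these shifts were not tested.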

Other observations

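The 26 genes reached by members of both lists and by no shared summit include neighbours that share the same pair of summits, such as APIP and PDHX, GSTZ1 and POMT2, and MTX3 and THBS4. That the summits of the 2 replicates differ in position follows from how members were defined. The genes named here were picked out after their values had been seen. At ATF4, the transcription factor of the amino acid stress response, the summits lay 850 bp apart (fold 4.19 in replicate 1 and 4.75 in replicate 2). At TMEM135, a membrane protein linked to mitochondrial and peroxisomal dynamics, they were 602 bp apart (5.93 and 7.65), and the replicate 1 summit was 6 bp from the gene start. At the shared ends of THBS4, an extracellular matrix glycoprotein, and MTX3, a mitochondrial outer membrane protein, they were 624 bp apart (5.22 and 5.24). At EPS15L1, an endocytic adaptor, they were at opposite ends of the gene, 114986 bp apart.

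Where a peak of the other list lay within 1 kb of a member, it was itself a member for 53 of 191 members of replicate 1 (27.7%), while 20.1% of all replicate 2 peaks were members. For members of replicate 2 it was 50 of 141 (35.5%), while 28.2% of all replicate 1 peaks were members. Such a neighbour is shared only where a further peak of the member's own list overlaps it. The share over the whole list is therefore not a like baseline, and the difference was not tested.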
